A study of Mus musculus with 2 samples.

Results

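The Schlafen family was examined as 7 genes, Slfn1, Slfn2, Slfn3, Slfn4, Slfn5, Slfn8 and Slfn9, in memory T helper 2 (Th2) cells that were sorted by whether they made interleukin-5 (IL-5). The members were all probe sets whose only gene symbol in the platform annotation is one of these names, which gave 11 of 45037 probe sets on the array and 7 of 18193 named genes. The cells were spleen CD4 T cells of BALB/c mice with the DO11.10 receptor transgene (TCR Tg), whose product recognises an ovalbumin (OVA) peptide, purified to over 98%. Both groups shared the same history: 6 days in Th2 culture with the peptide, 25 U/ml IL-2 and 100 U/ml IL-4, then 30 days in athymic BALB/c nu/nu recipients, then recovery from the spleen. The labels tell them apart only by the sorted fraction, IL-5+ or IL-5-. Nude hosts lack a thymus and make few T cells of their own, but they keep B cells, NK cells and myeloid cells. The labels do not say how many recipients were used, whether RNA was pooled, how IL-5 was stained, or whether the cells were stimulated again before the sort, so the signals cannot be taken as those of resting cells.

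Each group was measured on 1 Affymetrix array. With no replicate, no p-value could be computed, and every difference describes this pair of RNA samples. Il5, the gene behind the sort, read 37085 in the IL-5+ and 67.4 in the IL-5- sample. All 11 named T cell markers were above the floor on both arrays, with Cd4 at 454.5 and 471.0, whereas markers of other lineages were mostly dim. Of the 11, 9 had a lower signal in the IL-5+ sample, though 0 by 2-fold. Over the 13133 named genes above the floor on 1 or both arrays, 55.5% were lower, 4.01% by at least 2-fold. The summed signal of the 11 markers was 68032 for IL-5+ and 82793 for IL-5- cells. A floor of 36.3, the 40th percentile of the signals of both arrays together, was used for dim probe sets. A ratio is given as log2 of the IL-5+ signal over the IL-5- signal. Where only 1 of the 2 signals was above the floor the ratio is a bound, written as "at least".

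Schlafen genes encode a family of proteins named from the German word for sleeping, after the growth arrest that forced expression of the first members caused in T cells. The mouse proteins are grouped by length: Slfn1 and Slfn2 are short, Slfn3 and Slfn4 intermediate, and Slfn5, Slfn8 and Slfn9 long, the long ones with a helicase-like part that the others lack. Several are induced by type I interferon, and Slfn2 is needed for T cells to stay quiescent and survive activation. The genes lie together in a cluster on mouse chromosome 11.

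The sequences just before the transcription start sites are shown because they let the members be compared by a feature other than array signal. The family was chosen partly for its link to interferon, so the interferon element searched for below is not independent of that choice. They are from RefSeq on GRCm38.p6, the C57BL/6J reference and not the BALB/c strain of the cells, and all 7 genes matched an entry. Each is the 250 bases before the annotated start, written 5′ to 3′ along the gene. Capitals mark a match, on either strand, to GAAA, any 2 bases, GAAA, the core of the interferon-stimulated response element. The sequences shown are those of the gene furthest apart between the arrays, the brightest gene, and the 3 genes with a match.

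Slfn1, chr11:83116570-83116819, plus strand: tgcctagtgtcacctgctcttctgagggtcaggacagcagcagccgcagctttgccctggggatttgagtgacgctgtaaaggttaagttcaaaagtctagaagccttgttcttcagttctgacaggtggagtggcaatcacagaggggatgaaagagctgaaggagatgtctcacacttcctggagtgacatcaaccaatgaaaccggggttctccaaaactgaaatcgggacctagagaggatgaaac

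Slfn2, chr11:83064862-83065111, plus strand: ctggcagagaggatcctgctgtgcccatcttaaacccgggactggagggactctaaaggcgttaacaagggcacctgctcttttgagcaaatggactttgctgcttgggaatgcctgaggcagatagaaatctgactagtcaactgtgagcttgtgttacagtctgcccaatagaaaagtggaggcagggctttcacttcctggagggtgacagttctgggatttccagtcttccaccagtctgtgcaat

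Slfn5, chr11:82951852-82952101, plus strand: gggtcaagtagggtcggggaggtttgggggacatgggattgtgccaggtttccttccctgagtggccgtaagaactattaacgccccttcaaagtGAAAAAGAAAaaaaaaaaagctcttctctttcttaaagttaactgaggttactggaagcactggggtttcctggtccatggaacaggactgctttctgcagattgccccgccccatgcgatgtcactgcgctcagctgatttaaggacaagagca

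Slfn8, chr11:83020811-83021060, minus strand: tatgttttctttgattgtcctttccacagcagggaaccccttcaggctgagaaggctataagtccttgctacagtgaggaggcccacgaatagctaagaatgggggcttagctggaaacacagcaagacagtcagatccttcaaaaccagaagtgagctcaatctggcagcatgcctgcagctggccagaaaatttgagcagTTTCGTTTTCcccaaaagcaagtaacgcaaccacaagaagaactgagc

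Slfn9, chr11:82991831-82992080, minus strand: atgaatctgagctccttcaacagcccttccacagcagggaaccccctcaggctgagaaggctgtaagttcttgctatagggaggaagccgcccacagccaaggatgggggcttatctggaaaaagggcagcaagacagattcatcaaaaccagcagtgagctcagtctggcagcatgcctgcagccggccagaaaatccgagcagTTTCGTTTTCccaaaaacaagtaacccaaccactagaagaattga

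A match to this core stood before 3 of the 7 Schlafen genes. Slfn5 held GAAAAAGAAA on its own strand, from 155 to 146 bases before the start and inside an A-rich stretch. Slfn8 held TTTCGTTTTC from 48 to 39 bases before the start shown, which reads GAAAACGAAA on the other strand. Its second annotated start has the same bases in its window, at 136 to 127. Slfn9 held the same 10 bases as Slfn8, from 45 to 36 before its start. The promoters shown for Slfn8 and Slfn9 shared 210 of 238 aligned bases, with 24 gap bases. Windows of the other gene pairs had 137 to 156 identical bases with 64 to 120 gap bases under the same alignment. The window of the second Slfn8 start, shifted along the same stretch, shared 141 of 155 aligned bases with Slfn9, with 190 gap bases. Of all 32851 promoter windows of this length, 978 (2.98%) held the core. Counted by gene, that was 3.46% of 27025 genes. The core of the gamma-activated site, TTC, any 3 bases, GAA, was in none of the Schlafen windows and in 2306 (7.02%) of all windows, and the matches shown overlap no such site. No match says only that these letters are not in the window.

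All 7 Schlafen genes had a lower signal on the IL-5+ array at the probe set that stood for the gene, by log2 ratios from -2.38 for Slfn1 to -0.13 for Slfn9. The size differed widely between members. Slfn1 and Slfn5 were at least 2-fold lower and none was 2-fold higher, where 4.01% of the 13133 named genes with a ratio were at least 2-fold lower and 2.85% at least 2-fold higher. The median over the 7 genes was -0.32, and over all genes with a ratio it was -0.05. A ratio below 0 was the commoner direction on these arrays, found for 55.5% of those genes. Because the sign is common and the 7 genes are paralogs, the shared direction was not treated as independent evidence for each.

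**Figure D1:**
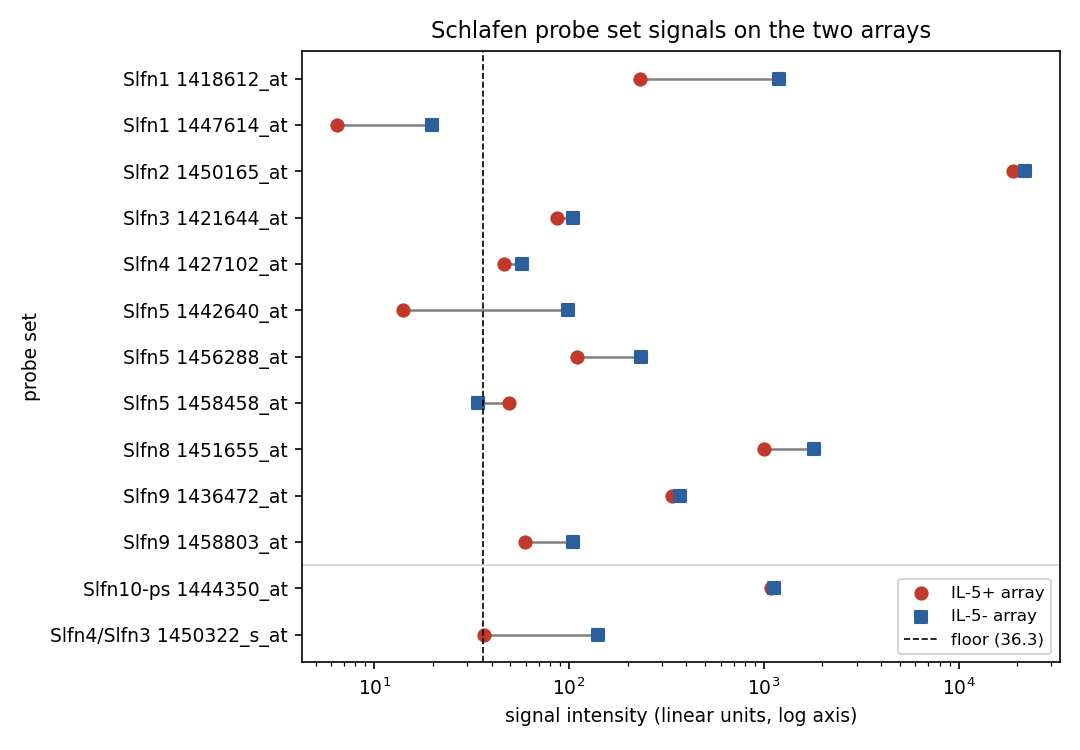
Signal intensity (log axis) of each of the 11 Schlafen probe sets, and below the grey line of Slfn10-ps and of the probe set shared by Slfn4 and Slfn3, with circles for the IL-5+ array and squares for the IL-5- array. The widest gap above the floor of 36.3 (dashed line) is that of Slfn1, 232 against 1204, while the points of Slfn2 nearly touch.

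Slfn1, a short Schlafen protein linked to growth arrest of T cells, was the member furthest apart. Its probe set 1418612_at read 232 in IL-5+ and 1204 in IL-5- cells. The signal was 5.19-fold lower in IL-5+ cells (log2 ratio -2.38). Of the 13133 genes, 35 had a ratio as low or lower, Slfn1 included. The only error that these data offer is the spread of the log2 ratio among probe sets that share a gene. Its SD was 0.21 for mean signals from 500 to 2000, where this probe set falls near the lower edge. From 112.8 to 500, where its IL-5+ signal alone lies, the SD was 0.37. This spread leaves out the variation between cell preparations. A second Slfn1 probe set, 1447614_at, for which the annotation gives no accession, was at 6.40 and 19.7. Both signals are under the floor, so this probe set gives no ratio and does not check the first. As these are bulk samples, fewer cells that express a gene and less RNA per cell cannot be told apart.

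Slfn2, the short Schlafen protein whose loss breaks T cell quiescence, was bright in both fractions. Its only probe set, 1450165_at, had signals of 18953 and 22033, brighter than 99.1% and 99.3% of probe sets on the same array. The difference was 1.16-fold (log2 ratio -0.22), against a between-probe-set SD of 0.13 in this range. Array signals near the top of the range can be compressed, and this was not tested here. Slfn1 and Slfn2 are both short Schlafen genes and lie next to each other, and their log2 ratios were 2.16 apart. Among all genes above the floor on both arrays, the 3 with the closest pair of log2 signals to Slfn2 over these 2 arrays were Btg1 (18918 and 20808, distance 0.083), Ifng (17909 and 22634, distance 0.091) and Fbl (20293 and 21163, distance 0.11). The distance depends on how well each probe set binds as well as on the RNA.

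The intermediate genes Slfn3 and Slfn4 were dim. Slfn3, reported in regulatory T cells and gut epithelium, had signals of 86.3 and 105.4 at 1421644_at (log2 ratio -0.29). Slfn4, best known from myeloid cells, had signals of 46.2 and 57.5 at 1427102_at (log2 ratio -0.32). Both differences were smaller than the between-probe-set SD of 0.55 for signals from 36.3 to 112.8. A further probe set, 1450322_s_at, is annotated to Slfn4 and Slfn3 together and so is no member under the rule. It read 36.4 and 140.4, a 3.86-fold difference (log2 ratio -1.95). That difference was larger than the same SD of 0.55, but the IL-5+ signal of this probe set lay only just above the floor. The probe set cannot be assigned to either gene. The probe sets named for Slfn3 or Slfn4 alone thus differed by 1.22-fold and 1.24-fold, and the shared one by more.

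Markers of myeloid cells, in which Slfn4 is usually found, were dim on both arrays. Of 14 named myeloid markers, 8 were under the floor on both arrays, among them Itgam, Cd14, Tyrobp and S100a8. Their signals summed to 457 for IL-5+ and 480 for IL-5- cells, and the brightest on average was Csf1r at 105.6 and 124.5. Lyz2, a defining macrophage marker, was at 6.30 and 42.0, while Fcer1g (61.4 and 4.7) and Cd68 (109.1 and 75.8) went the other way. Of the 6 myeloid markers with a ratio, 3 were below 0. Of 7 named dendritic cell markers, 1 had a 2-fold or greater deficit in the IL-5+ sample, H2-Aa (51.0 against 155.8). That share was 4.01% over all named genes with a ratio. The brightest dendritic cell marker on both arrays was H2-Ab1 (157 and 250.4), and the summed signal of the 7 was 443 and 711. Of 7 named B cell markers, 4 had no signal above the floor, and the sums were 175 and 233, with Ms4a1 the brightest on average (60.7 and 62.1). NK cell markers summed to 726 and 1500, nearly all of it Eomes (641 and 1472), which T cells also express, while neither Ncr1 signal reached the floor (18.3 and 21.1). The CD8 genes Cd8a and Cd8b1 summed to 347 and 245, with Cd8b1 the brighter at 280 and 168. The part of these cells in the Schlafen signals was not tested.

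Slfn5, a long and nuclear Schlafen protein induced by interferon, had 3 probe sets that did not give the same answer. The brightest, 1456288_at, had signals of 110 and 233, a 2.12-fold lower signal in IL-5+ cells (log2 ratio -1.09), where the between-probe-set SD was 0.37. The second, 1442640_at, read 14.1 and 98.7 and was at least 2.72-fold lower. The third, 1458458_at, read 49.0 and 34.2 and was at least 1.35-fold higher in IL-5+ cells, the only one of the 11 member probe sets with the opposite direction. Both of its signals lay near the floor. The 2-fold difference of Slfn5 was lost when a constant was added to all signals in place of the floor (log2 ratio -0.88). The antisense transcript Slfn5os, which starts within the same locus, had signals of 6.30 and 8.80, both under the floor.

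Slfn8 and Slfn9 are long Schlafen genes that lie side by side and have similar promoters, but they did not differ by the same amount. Slfn8, a member of the long group whose relatives include enzymes that cut transfer RNA, had signals of 1008 and 1803 at its only probe set, 1451655_at. It was 1.79-fold lower in IL-5+ cells (log2 ratio -0.84, between-probe-set SD 0.21), short of 2-fold. Of the 13133 genes with a ratio, 800 (6.09%) had one as low or lower, Slfn8 included. In its brightness range, 500 to 2000, 2.29% of the 3402 genes were at least 2-fold lower, a threshold that Slfn8 did not reach. Slfn9 had signals of 337 and 370 at 1436472_at, a log2 ratio of -0.13 that is smaller than the SD of 0.37. Its dimmer probe set, 1458803_at, read 59.7 and 104.6 (log2 ratio -0.81). The probe sequences were not used here, so binding of one paralog's RNA by probes for another was not tested.

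**Figure D2:**
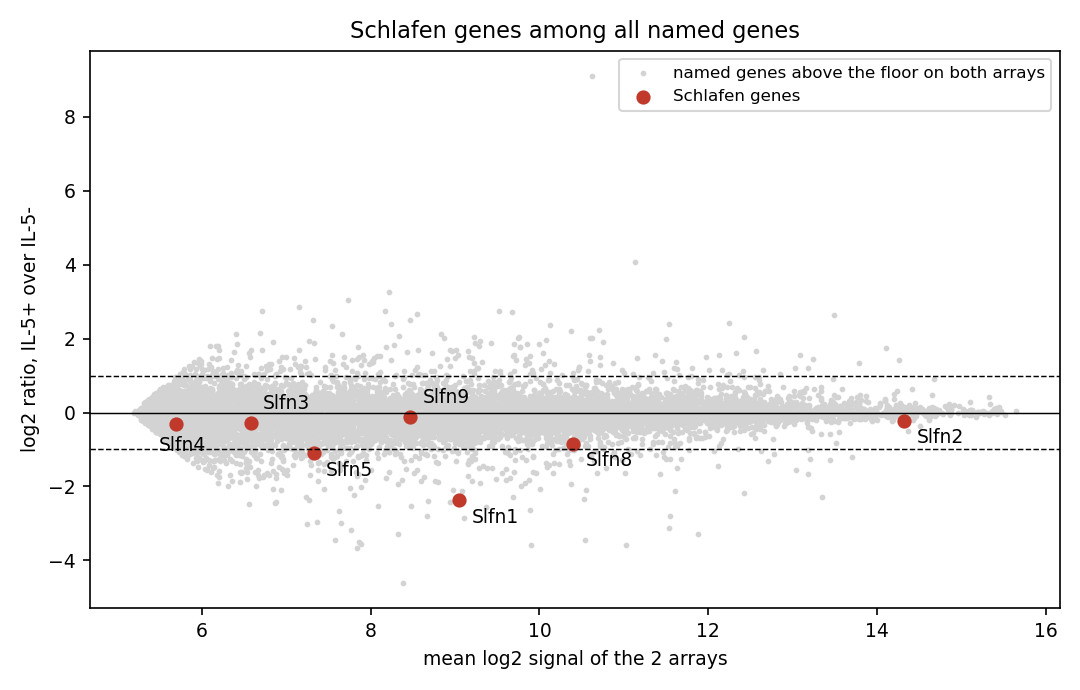
Log2 ratio of each named gene above the floor on both arrays (grey) against its mean log2 signal, with the 7 Schlafen genes in red and dashed lines at 2-fold. Slfn1 lies at -2.38 below the grey band, Slfn5 at the lower dashed line, and Slfn2 far to the right at -0.22.

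Seen by position, the lower signals were uneven along the cluster. In RefSeq order the genes run Slfn5, Slfn9, Slfn8, Slfn10-ps, Slfn2, Slfn1, Slfn4 and Slfn3, followed by Slfn14, which was not analysed here. The log2 ratios along this order were -1.09, -0.13, -0.84, -0.05, -0.22, -2.38, -0.32 and -0.29. The 2 genes at least 2-fold lower were therefore not adjacent. Slfn10-ps, named as a pseudogene and no member, had signals of 1086 and 1126. The 5 nearest named protein-coding genes on each side of the cluster gave 5 ratios measured on both arrays, from -0.09 to 0.31, and 2 bounds. Of the latter, 1700020L24Rik (67.5 and 12.7) was at least 1.86-fold higher in IL-5+ cells. Fndc8 (20 and 46.0) was lower there by at least 1.27-fold. None of the 5 was 2-fold apart, where 4.01% of all named genes with a ratio were 2-fold lower and 2.85% higher. With the floor at the 20th percentile or with no floor, 1 neighbour was 2-fold higher and 1 lower. With an added constant, 1 was higher. On the near side of Slfn5, Nle1, a ribosome assembly factor gene, was at 903 and 726.5 (log2 ratio 0.31), and Unc45b was too dim for a ratio. Beyond Slfn14, Ap2b1, which encodes an adaptor subunit of clathrin coats, was at 1305 and 1095 (0.25).

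**Figure D3:**
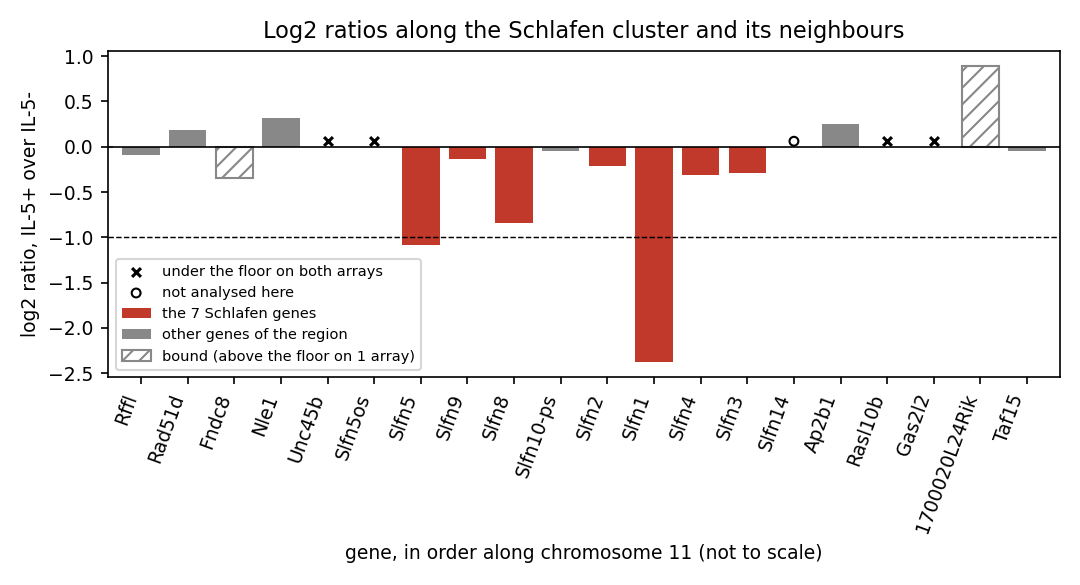
Log2 ratio of each gene in its order along the cluster and its 5 named neighbours on each side (order only, not to scale), with Schlafen members in red, other genes in grey and bounds hatched. The bars of Slfn1 (-2.38), Slfn5 (-1.09) and Slfn8 (-0.84) reach furthest down, and the neighbours measured on both arrays lie between -0.09 and 0.31.

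Interferon-induced genes outside the family mostly had lower signals in IL-5+ cells. Over all named genes with a ratio, 4.01% were at least 2-fold lower and 2.85% at least 2-fold higher. Of 30 interferon-induced genes with a ratio, 18 were at least 2-fold lower and none 2-fold higher, with a median of -1.16. Those furthest apart were Ifit3, a restrictor of viral RNA (68.8 and 814), Mx1, an antiviral GTPase (68.8 and 783), and Cxcl10, a chemokine (102 and 1001), with log2 ratios of -3.57, -3.51 and -3.30. Slfn1 lay within the range of this list, Slfn5 and Slfn8 lay above its median, and Slfn2, Slfn3, Slfn4 and Slfn9 lay between -0.32 and -0.13. Oasl1 was the only one of the 30 with a ratio above 0 (107 and 63.1, 0.76). The promoter core printed above stood before 10 of the 24 list genes with a promoter entry (41.7%), and before 3 of the 7 Schlafen genes (42.9%). Over all 27025 genes the share was 3.46%. The matches of Slfn8 and Slfn9 are the same 10 bases in similar promoters, so they do not count as separate occurrences, and that of Slfn5 lies in an A-rich stretch. Within the family, the genes with a match had log2 ratios of -1.09 (Slfn5), -0.84 (Slfn8) and -0.13 (Slfn9). Of those without one, Slfn1 was at -2.38, and Slfn2, Slfn3 and Slfn4 were at -0.22, -0.29 and -0.32.

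Genes for interferon receptors and for the proteins that carry their signal were also read. Of 10 genes with a ratio, 3 were 2-fold or more lower in the IL-5+ sample and none was 2-fold higher. Over all named genes with a ratio those shares were 4.01% and 2.85%. The list median was -0.29. The 3 were Ifngr2, a chain of the interferon gamma receptor (130 and 413, -1.67), and the transcription factor genes Irf1 (2130 and 5050, -1.25) and Stat2 (108.5 and 235, -1.12). The type I receptor genes Ifnar1 and Ifnar2 had ratios of -0.23 and -0.32.

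Regulators of T cell quiescence, the other function for which Schlafen genes are known, lay on both sides of 0. Of 14 with a ratio, 9 were below 0, 1 was at least 2-fold lower and 1 at least 2-fold higher, and the median was -0.15. Over all named genes with a ratio, 55.5% were below 0, 4.01% at least 2-fold lower and 2.85% at least 2-fold higher. Counts of 1 in 14 do not set this list apart from those shares. Klf2, a factor that keeps T cells quiescent, was lower (275 and 3323, -3.60). Vsir, which encodes the inhibitory receptor VISTA, was higher (4593 and 2276, 1.01), and Cdkn1b, a cell cycle inhibitor gene, just missed 2-fold (3230 and 1666, 0.96). Vsir was not 2-fold higher when the median of its probe sets was used. None of 19 cell cycle genes was 2-fold apart, and at the shares above few of any 19 genes would be. Ratios below 0 were found for 18 of the 19, with a median of -0.34 against -0.05 over all named genes with a ratio. Plk1 (50.8 and 86.9), Mcm6 (4731 and 7676) and Cdk1 (290 and 452) had ratios of -0.77, -0.70 and -0.64. Slfn1 (-2.38), Slfn5 (-1.09) and Slfn8 (-0.84) lay below the whole range of the cell cycle list, -0.77 to 0.43. Slfn2, Slfn3, Slfn4 and Slfn9 lay inside it.

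**Figure D4:**
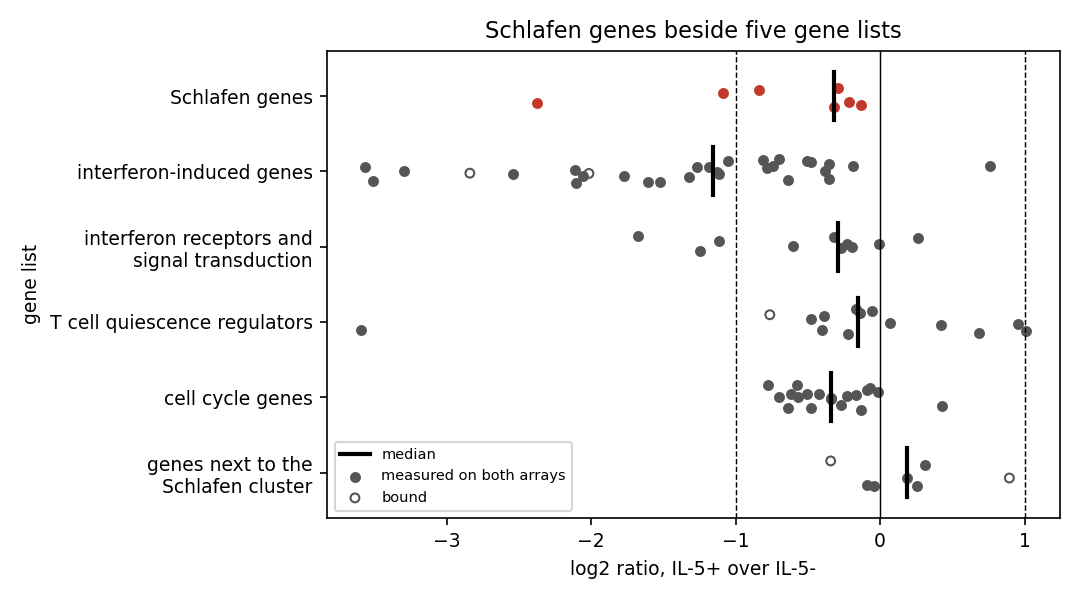
Log2 ratio of each Schlafen gene (red) and of the genes of 5 lists (dark grey), with open circles for bounds, a black bar at each median and dashed lines at 2-fold. The medians are -0.32 for the Schlafen genes, -1.16 for interferon-induced genes and -0.15 for quiescence regulators, where Klf2 stands alone at -3.60.

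The ratios of the 7 genes moved little with the processing, partly because some alternatives could not change them. Over 9 other scalings, floors and choices of probe sets, the log2 ratio of Slfn1 stayed between -2.38 and -2.21, that of Slfn8 between -0.84 and -0.76, and that of Slfn2 between -0.27 and -0.14. Slfn9 had the widest relative range, from -0.47 with the median of its probe sets to -0.05 with the arrays scaled to equal medians. None of the 61 values that could be computed was above 0. Part of these values could not differ from the main ones. A changed floor leaves a ratio as it is while both signals stay above it. Leaving out probe sets whose names end in _s_at, _x_at or _a_at changed no member, as no member probe set has such a name. With the floor at the 60th percentile of signals, 112.8, Slfn3 and Slfn4 had no ratio, and the median over the 5 genes left was -0.84 in place of -0.32.

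**Figure D5:**
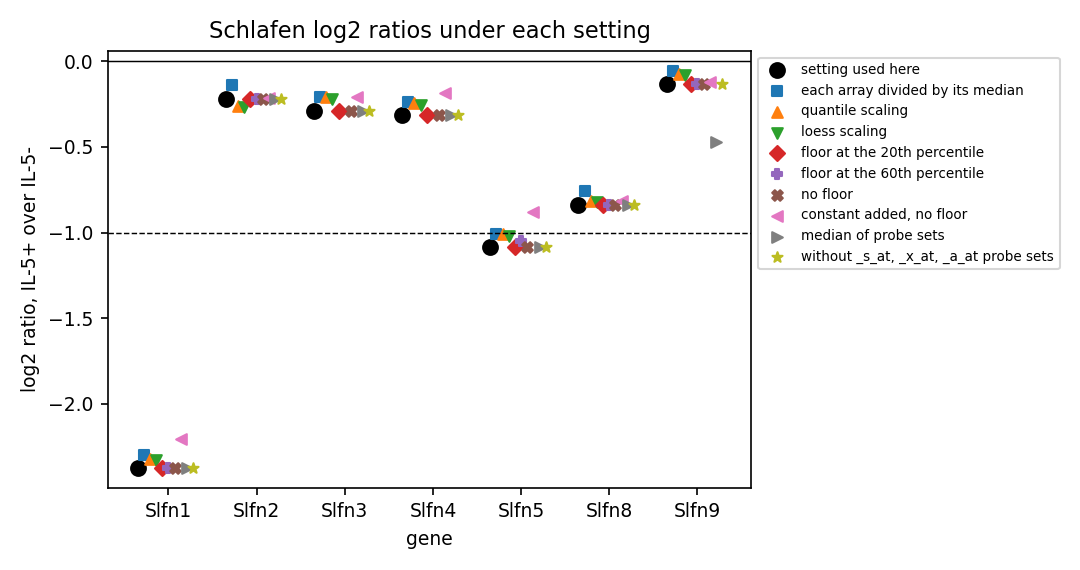
Log2 ratio of each Schlafen gene under the setting used here (black) and under 9 alternatives (coloured markers), with a dashed line at a 2-fold lower signal. Slfn1 stays below -2.2 throughout, and Slfn5 sits on the dashed line and crosses it once, at -0.88 with an added constant.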

How the data were processed

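For each array the authors deposited an intensity per probe set, and GCOS, Affymetrix software for scanned arrays, is the tool listed in the submitters' processing notes. The sources used here do not give its version, method or scaling. The deposited intensities are linear, run from 0.1 to 51950 and carry no detection calls. The means without the top and bottom 2% were 496 and 497, so ratios are relative to the rest of each array. Total RNA was labelled with biotin.

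Of the probe sets, 34945 had exactly 1 symbol, 932 several and 9160 none. The probe set brightest on average (mean log2 signal) stood for its gene. Signals under 36.3 were raised to it. No test was possible with 1 array a group, so differences of 2-fold or more were counted. The SD between probe sets came from genes with at least 2 of them in a brightness range. The number of arrays limits the precision.

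Named genes were all members, other Slfn symbols, Il5, 5 neighbours per side, the 3 members furthest apart of each list measured on both arrays, the brightest marker of each other cell type, and the 3 genes most like the brightest member. Other genes were named after their values were seen. Members and lists were chosen with earlier results of these data known. Counting was tested on simulated data. Alternatives were other scalings (equal medians, quantile, loess), floors, an added constant, probe set choices and thresholds. Promoter alignment used biopython 1.88, loess used statsmodels 0.14.6 and tables used pandas 2.3.3, in Python 3.11.15.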

Additional observations from a re-analysis of the deposited data

How the results depend on the processing

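No paired analysis was possible because each group has 1 array. Slfn1 and Slfn5 were the 2 Schlafen genes at least 2-fold lower. The count was 1 with an added constant, 1 at a 3-fold threshold and 3 at 1.5-fold. The shares of all named genes lower at those settings were 3.23%, 1.09% and 11.9%. Over all named genes, the counts of 374 higher and 526 lower became 1325 and 1572 for the lower floor (20th percentile), 183 and 226 for the higher one (60th), 2057 and 2311 with no floor, 1035 and 1560 at 1.5-fold, and 91 and 143 at 3-fold. The remaining alternatives (3 scalings, an added constant, 2 probe set choices) left both counts within a factor of 1.5. All 61 values of the Schlafen genes stayed within 1 between-probe-set SD of the value reported, and no 2-fold value reversed. Of 193 values for single probe sets, list counts and overall medians, 20 moved. A ratio or median had moved if it changed by 1 such SD or more. A count had moved if it changed by more than a factor of 1.5, or between none and some. For Slfn3, Slfn4 and Slfn9 the reported ratio is itself smaller than the SD, so the limit of 1 SD is a loose one for them. Dim signals limit Slfn3, Slfn4 and 2 of the 3 Slfn5 probe sets. Slfn2 lies near the top of the range, where any compression was not tested.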
